A study of Rattus norvegicus with 15 samples.

Results

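Aldehyde dehydrogenases oxidise aldehydes to acids with NAD or NADP as cofactor. Transcripts of 10 rat genes of this family were sought here, namely Aldh3a1, Aldh3a2, Aldh1a1, Aldh1a7, Aldh2, Aldh1l1, Aldh4a1, Aldh6a1, Aldh7a1 and Aldh9a1. A gene was taken where the accession of an array probe maps to its symbol in the rat gene table of assembly GRCr8. By that rule 9 of the 10 had a probe, among 39001 genes and unnamed transcripts on the array, and all 9 were among the 19783 tested. Aldh1a7 has no entry in the gene table and was not analysed here.

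The family members differ in substrate and in compartment. Most of those studied here serve fixed steps of metabolism, in the breakdown of amino acids, retinoids, folates, fatty aldehydes or ethanol, and are abundant in liver. Aldh3a1 is the exception: it oxidises aromatic and medium-chain aldehydes, its transcript is scarce in normal rat liver, and it belongs to the battery of genes that the aryl hydrocarbon receptor (AhR) switches on. The AhR is a transcription factor that binds planar aromatic ligands, moves to the nucleus, pairs with Arnt and binds DNA at a core written GCGTG, and Cyp1a1 is its best-known target.

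Gene expression had been measured on 15 one-colour Agilent arrays, in 5 groups of 3, from cryopreserved primary hepatocytes of male rats (strain spelled "Wister" in the labels). Treatment lasted 24 h and followed 24 h of pre-culture. The compounds, each at 30 µM, were 2,7-naphthalenediol, then its isomer 1,5-naphthalenediol, and then 1-naphthol and naphthalene, and the remaining cultures had DMSO, the solvent. Naphthalene is a hydrocarbon of fused benzene rings, 1-naphthol carries a single hydroxyl group on it, and the diols carry a pair of hydroxyl groups at the positions their names give. The title of the series concerns grouping naphthalene with its analogues when judging liver toxicity. The labels speak of 3 independent experiments per condition but name no donor or cell lot, so the p-values measure only the spread between these samples. Hepatocytes cultured from frozen stocks are not whole liver, though some markers of its other cells were well above background, as given below. The sources used here give no age for the animals.

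Of the 58717 gene spots on an array, 57.4 to 61% were well above background and none was saturated. Arrays of 1 group correlated at 0.996 or more. Slide 1 carried all 2,7-naphthalenediol arrays, 2 of the 1,5-naphthalenediol arrays and all DMSO arrays. The third 1,5-naphthalenediol array and all arrays of 1-naphthol and naphthalene lay on slide 2. Any difference of 1-naphthol or naphthalene from DMSO or from 2,7-naphthalenediol therefore cannot be told apart from a difference between slides without 1,5-naphthalenediol as the link. All 6 hepatocyte markers (Alb, Apoa1, Ttr, Tf, Serpina1, Hnf4a) were well above background on every array. Their summed level, in multiples of the array's 75th percentile, was 469 to 509 with the compounds, against 507 to 525 with DMSO. In the limma fit described below, 1 of the 6 was called lower than DMSO with naphthalene (12.8% of all genes). None was called lower with 2,7-naphthalenediol (5.50% of all genes), 1,5-naphthalenediol (12.7%) or 1-naphthol (9.51%). At an unadjusted p under 0.05, 4 were lower with 1,5-naphthalenediol and 2 with each other compound, and 0 were higher. No share of all genes at that level is given here, so the unadjusted counts are descriptions only. Only Cd68 of 6 macrophage markers was well above background, and none of 3 lymphocyte and 4 endothelial markers was so on all 3 arrays of any group. Of 6 stellate cell markers 3 were so in every group, with a summed level of 0.205 to 0.299 with the compounds, against 0.213 to 0.306 with DMSO. Epcam and Sox9 of the 4 bile duct markers were well above background, while Krt19 was so on no array. The summed level of these 4 was 0.481 to 0.522 with 2,7-naphthalenediol, 0.532 to 0.546 with 1,5-naphthalenediol, 0.479 to 0.57 with 1-naphthol and 0.643 to 0.673 with naphthalene, against 0.618 to 0.665 with DMSO. The sum follows Epcam, the brighter gene, which was lower than in DMSO by 0.44 with 2,7-naphthalenediol, 0.32 with 1,5-naphthalenediol and 0.49 with 1-naphthol on the log2 scale. Sox9 went the other way, higher by 0.40 with 1-naphthol and 0.36 with naphthalene, and the part of either in the results was not tested.

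Promoter sequence was available in RefSeq's table (build GRCr8) for 7 of the 9 genes, as the 300 bases from 250 before to 50 after the start of the gene. The table has no entry for Aldh3a1 or Aldh2. GCGTG, searched on both strands, lay in 29.7% of all 33469 promoters of this length. Among the 7 genes it was found in the promoters of Aldh3a2, Aldh7a1 and Aldh9a1, and not in those of Aldh1a1, Aldh1l1, Aldh4a1 and Aldh6a1. TGACNNNGC, the core of the antioxidant response element bound by the Nrf2 protein, also searched on both strands, lay in 12.1% of all promoters and in that of Aldh9a1. In no promoter of the 7 did a match of one motif overlap a match of the other. Sequences are shown for Aldh3a2, which lies next to Aldh3a1 on chromosome 10, and for Aldh1l1 and Aldh4a1, the relatives whose transcripts differed most from DMSO. They run from 5′ to 3′ on the gene's strand, with GCGTG in capitals. The stretches are chr10:46448286-46448585 on the minus strand for Aldh3a2, chr4:124616970-124617269 on the plus strand for Aldh1l1 and chr5:157162939-157163238 on the plus strand for Aldh4a1.
Aldh3a2: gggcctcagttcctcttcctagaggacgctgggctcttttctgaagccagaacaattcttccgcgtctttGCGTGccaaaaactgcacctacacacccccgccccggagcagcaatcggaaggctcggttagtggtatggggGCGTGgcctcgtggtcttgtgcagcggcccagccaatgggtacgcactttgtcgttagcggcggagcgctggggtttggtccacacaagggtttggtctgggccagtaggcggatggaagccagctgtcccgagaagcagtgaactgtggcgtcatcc
Aldh1l1: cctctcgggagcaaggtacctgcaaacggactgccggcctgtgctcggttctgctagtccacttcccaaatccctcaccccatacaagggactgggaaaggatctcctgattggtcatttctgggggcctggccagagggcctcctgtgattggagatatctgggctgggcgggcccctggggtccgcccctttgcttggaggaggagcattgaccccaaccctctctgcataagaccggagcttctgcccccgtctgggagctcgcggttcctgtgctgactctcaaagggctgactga
Aldh4a1: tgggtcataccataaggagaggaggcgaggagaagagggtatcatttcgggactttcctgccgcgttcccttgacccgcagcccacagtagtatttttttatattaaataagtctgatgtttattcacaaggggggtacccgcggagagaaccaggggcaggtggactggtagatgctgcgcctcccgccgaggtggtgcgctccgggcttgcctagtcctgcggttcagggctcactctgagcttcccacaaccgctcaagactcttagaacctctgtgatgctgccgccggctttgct
Aldh3a2 holds the core at 2 places, 180 and 108 bases before the start, and its transcript was called different from DMSO in none of the comparisons. A match is only a description of letters in this window.

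Aldh3a1 transcript was higher than in DMSO with all 3 hydroxylated compounds, and no difference was called with naphthalene. Levels are given as log2 of the processed signal minus the array's 75th percentile, so that a level of 0 is the brightness that 75% of gene spots do not exceed. The probe of Aldh3a1 is printed as 10 spots on the array. Its levels were -5.25, -5.65 and -5.40 with 2,7-naphthalenediol, -3.83, -3.86 and -4.12 with 1,5-naphthalenediol, and -3.18, -3.29 and -3.31 with 1-naphthol. They were -7.77, -7.51 and -7.56 with naphthalene, against -7.54, -7.54 and -7.48 with DMSO. No array of a hydroxylated compound overlapped with naphthalene or DMSO, and the 3 hydroxylated groups did not overlap with each other, while naphthalene and DMSO did. Before scaling, the mean signal of the spots was 37.6 to 50.8 units with 2,7-naphthalenediol, 116 to 135 with 1,5-naphthalenediol, 189 to 212 with 1-naphthol and 9.16 to 10.6 with naphthalene, against 10.4 to 10.9 with DMSO. All 10 spots were well above background on the 9 arrays of the hydroxylated compounds. With naphthalene 0 or 1 of the 10 spots was so, against 0 with DMSO, so the gene passed the filter on dim probes only through the groups where it is high.

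**Figure D1:**
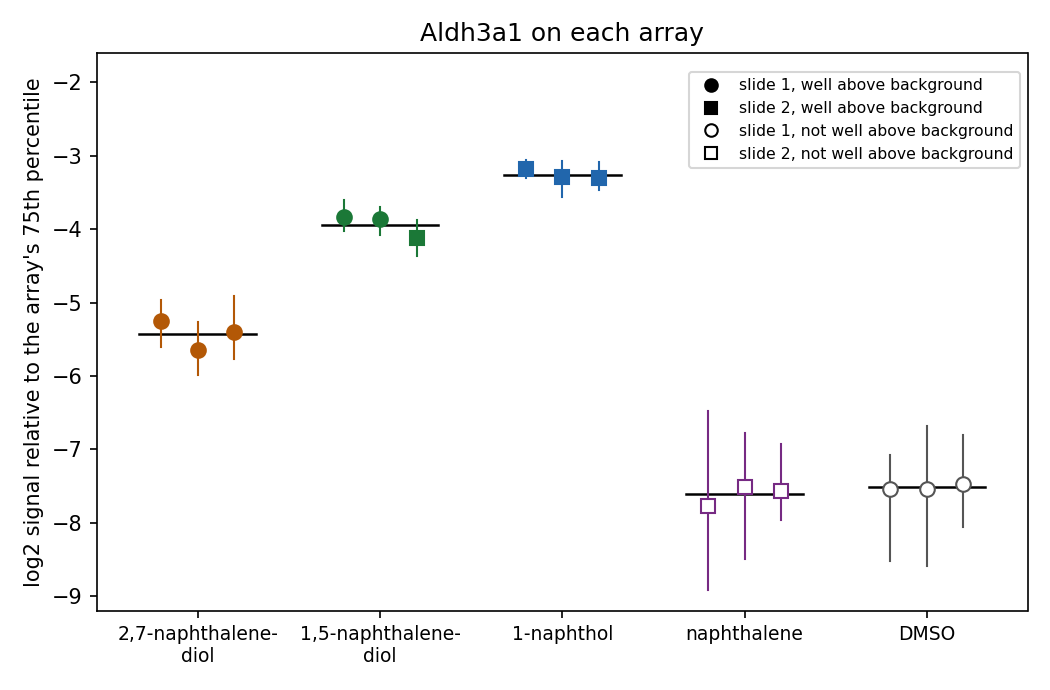
Level of Aldh3a1 on each of the 15 arrays (vertical axis: log2 processed signal minus the array's 75th percentile; horizontal axis: group). Points are means of the spots, vertical lines run from the lowest to the highest spot, horizontal bars are group means, circles mark slide 1, squares slide 2 and open symbols arrays where the probe was not well above background. The arrays of the 3 hydroxylated compounds sit between -5.65 and -3.18, above the arrays of naphthalene and DMSO, which sit between -7.77 and -7.48.

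Differences were tested with limma over all 15 arrays, with Benjamini-Hochberg adjustment over the 19783 genes within each comparison and a threshold of 0.05. All comparisons with DMSO share the same 3 DMSO arrays. Because Aldh3a1 was dim in DMSO and in naphthalene, its estimated folds are given as at least a value. That value uses, per array of the dim group, the higher of its own value and the lowest value well above background. It counts no sampling error, depends on the background correction, and against DMSO equals the measured estimate. Against DMSO, the estimate for Aldh3a1 was at least 4.24-fold higher with 2,7-naphthalenediol (log2 difference 2.09 ± 0.105 SE, 95% interval 1.86 to 2.31, adjusted p = 2.89e-06). It was at least 11.97-fold higher with 1,5-naphthalenediol (3.58 ± 0.105, interval 3.35 to 3.81, adjusted p = 8.05e-10). With 1-naphthol it was at least 19.1-fold higher (4.26 ± 0.105, interval 4.03 to 4.49, adjusted p = 6.11e-10). With naphthalene the log2 difference from DMSO was -0.10, with a 95% interval from -0.32 to 0.13 and an adjusted p of 0.53. No fold is given there, since the probe was not well above background in either group. The rise was thus called with each hydroxylated compound, while the parent hydrocarbon gave no call. In RNA from whole cultures, more transcript per cell and more cells holding it cannot be told apart.

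The 3 hydroxylated compounds also differed from naphthalene itself, at the same dose and time. By the same bounds, the estimate for Aldh3a1 was at least 4.01-fold higher with 2,7-naphthalenediol (measured log2 difference 2.18, adjusted p = 1.71e-06). It was at least 11.3-fold higher with 1,5-naphthalenediol (3.68, adjusted p = 6.84e-10) and at least 18.1-fold higher with 1-naphthol (4.35, adjusted p = 4.69e-10). In order of mean level, Aldh3a1 stood at -3.26 ± 0.067 with 1-naphthol, -3.94 ± 0.162 with 1,5-naphthalenediol, -5.43 ± 0.203 with 2,7-naphthalenediol, -7.52 ± 0.0371 with DMSO and -7.61 ± 0.141 with naphthalene (SD, n = 3 each). In the fit without a slide term, each step of that order passed the test except the last, between naphthalene and DMSO. Aldh3a1 passed the filter on dim probes only through the groups where it is high. Its tests against naphthalene and DMSO therefore describe the differences and are no independent support for them.

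The diols differ from each other only in where their hydroxyl groups sit. Aldh3a1 was lower with 2,7-naphthalenediol than with 1,5-naphthalenediol (log2 difference -1.5, -64.6%, 95% interval -1.73 to -1.27, adjusted p = 6.09e-06). It was also lower with 2,7-naphthalenediol than with 1-naphthol (log2 difference -2.17, -77.8%, 95% interval -2.40 to -1.95, adjusted p = 1.77e-06). 1,5-Naphthalenediol, which has the hydroxyl of 1-naphthol and another on the other ring, gave a lower level than 1-naphthol (log2 difference -0.68, -37.5%, 95% interval -0.91 to -0.45, adjusted p = 0.00276). The slides give the same order. Within slide 1, 2,7-naphthalenediol differed from DMSO by 2.09 (adjusted p = 0.00177), 1,5-naphthalenediol from DMSO by 3.67 (adjusted p = 2.58e-05) and 2,7- from 1,5-naphthalenediol by -1.59 (adjusted p = 0.00146). Within slide 2, 1-naphthol differed from naphthalene by 4.35 (adjusted p = 5.16e-05) and 1,5-naphthalenediol from naphthalene by 3.49 (adjusted p = 0.000263). Groups on different slides can be compared only with the slide as a block, through 1,5-naphthalenediol. In that fit 1-naphthol differed from DMSO by 4.54 (adjusted p = 4.25e-07) and naphthalene from DMSO by 0.18 (adjusted p = 0.579). With that block, 2,7-naphthalenediol differed from 1-naphthol by -2.45 (adjusted p = 0.000313) and from naphthalene by 1.90 (adjusted p = 0.00338).

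The size of the Aldh3a1 differences depends on the background correction, so the folds above hold only for the processed signal. With normexp correction and an offset of 50, the log2 differences from DMSO were 0.51 with 2,7-naphthalenediol, 1.33 with 1,5-naphthalenediol and 1.82 with 1-naphthol, each still past the threshold. The call between 1,5-naphthalenediol and 1-naphthol did not hold within slide 2 (-0.86, adjusted p = 0.0853), where a single 1,5-naphthalenediol array stands and is taken to vary like the other groups.

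The relatives were far more even across the groups. Across the groups, 6 of the 9 genes passed the F test of any difference, as did 44.2% of all genes tested. Counting Aldh3a1, 3 of the 9 genes were called with 2,7-naphthalenediol against DMSO, where 11.3% of all genes tested were called. With 1,5-naphthalenediol 5 of 9 were called (22.0% of all genes), with 1-naphthol 3 of 9 (20.2%) and with naphthalene 2 of 9 (24.9%). Excluding Aldh3a1, the median size of the log2 difference from DMSO over the 8 relatives was 0.0411, 0.103, 0.105 and 0.0835 for the compounds in that order, against 0.111, 0.119, 0.121 and 0.133 over all genes tested. By the median, the relatives' differences from DMSO thus lay near or below those of all genes, which include dim probes. Some relatives lay above it. With 1,5-naphthalenediol the called relatives Aldh4a1 (0.43), Aldh1l1 (0.31), Aldh6a1 (-0.16) and Aldh2 (0.14) exceeded 0.119 in size, while Aldh3a2, Aldh1a1, Aldh7a1 and Aldh9a1 did not. With 2,7-naphthalenediol the called relatives were Aldh2 and Aldh1l1. The difference of Aldh3a1 from DMSO exceeded that of each of the 8 relatives with each hydroxylated compound, in a test of the difference of the log2 differences. Aldh3a1 passed the filter only through the groups where it is high, and the members were chosen with earlier results of these data known. The test therefore describes the size of the gap and is no independent support for it. Since Aldh3a1 was dim in DMSO, the estimated gap on the processed signal is given as a bound. It was at least 1.9 to 2.13 with 2,7-naphthalenediol (largest adjusted p = 5.79e-06), 3.15 to 3.74 with 1,5-naphthalenediol (2.36e-08) and 4 to 4.29 with 1-naphthol (1.94e-09). With naphthalene the probe was dim in both groups and no gap is given, and limma called 0 of 8 (smallest adjusted p = 0.0946; 2 of 8 at an unadjusted p under 0.05).

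**Figure D2:**
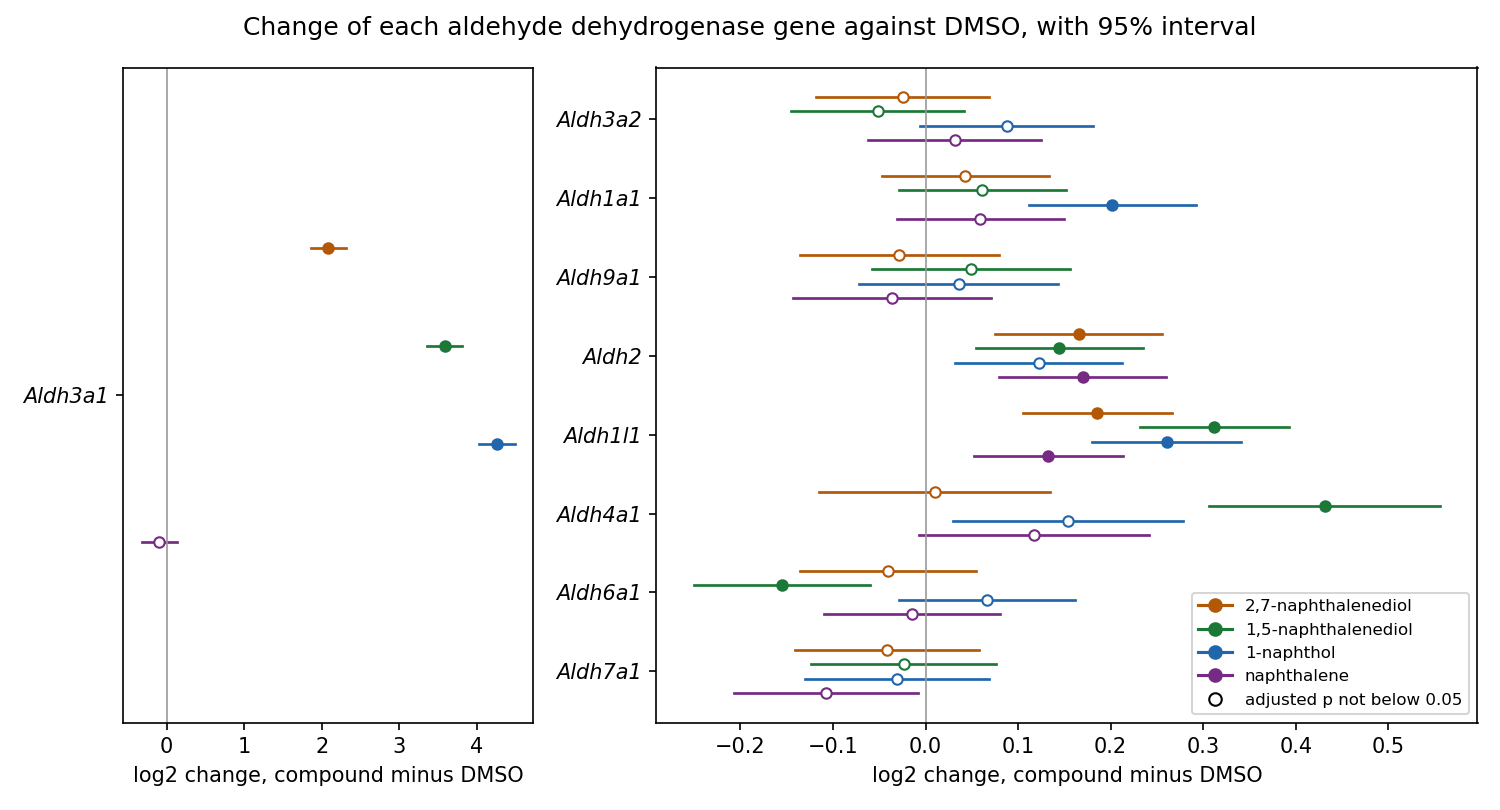
Log2 difference from DMSO of Aldh3a1 (left panel) and its 8 relatives (right panel, narrower scale) with each compound. Points are limma estimates, lines 95% intervals, and open symbols mark an adjusted p not below 0.05. Aldh3a1 reaches 4.26 with 1-naphthol, while the largest difference of a relative is 0.43, for Aldh4a1 with 1,5-naphthalenediol.

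Aldh3a2 is the microsomal fatty aldehyde dehydrogenase and the closest relative of Aldh3a1 studied here. Its levels were 4.38, 4.30 and 4.27 with 2,7-naphthalenediol, 4.26, 4.34 and 4.27 with 1,5-naphthalenediol, 4.47, 4.40 and 4.42 with 1-naphthol and 4.33, 4.40 and 4.39 with naphthalene, against 4.39, 4.30 and 4.34 with DMSO. Only the 1-naphthol arrays lay apart from those of DMSO, by a log2 difference of 0.09 that did not pass the test (adjusted p = 0.166). The 95% interval for 1-naphthol reached from -0.0059 to 0.18, so a difference of the size seen in Aldh3a1 lay far outside it. No comparison among the 5 groups was called for Aldh3a2 (limma's F test over the groups, adjusted p = 0.0963).

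Aldh1a1 is the cytosolic retinal dehydrogenase that makes retinoic acid, and against DMSO it was called higher with 1-naphthol. Its levels were 3.56, 3.50 and 3.51 with 1-naphthol, against 3.34, 3.32 and 3.30 with DMSO, without overlap. The log2 difference was 0.20 (95% interval 0.11 to 0.29, 15% higher, adjusted p = 0.00787). Under a slide block it was 0.19 and not called (adjusted p = 0.214). With 2,7-naphthalenediol the levels were 3.29, 3.37 and 3.43, with 1,5-naphthalenediol 3.34, 3.42 and 3.39, and with naphthalene 3.34, 3.39 and 3.41, and the differences from DMSO of 0.04, 0.06 and 0.06 did not pass. Aldh9a1, which oxidises the trimethylaminobutyraldehyde formed in carnitine synthesis, lay between 3.15 and 3.36 on all 15 arrays and was called in no comparison (F test adjusted p = 0.426).

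Aldh2, the mitochondrial enzyme that clears acetaldehyde, was slightly higher with 3 of the 4 compounds. Its levels were 5.16, 5.19 and 5.11 with 2,7-naphthalenediol, 5.13, 5.19 and 5.08 with 1,5-naphthalenediol, 5.10, 5.10 and 5.12 with 1-naphthol and 5.20, 5.17 and 5.10 with naphthalene, against 4.99, 4.94 and 5.04 with DMSO. All compound arrays lay above all DMSO arrays. The log2 difference from DMSO was 0.17 with 2,7-naphthalenediol (adjusted p = 0.0286), 0.14 with 1,5-naphthalenediol (0.0272) and 0.17 with naphthalene (0.0139), while 0.12 with 1-naphthol did not pass (0.0563). These calls were lost when arrays were scaled on their median (adjusted p = 0.104, 0.163 and 0.207 for 2,7-naphthalenediol, 1,5-naphthalenediol and naphthalene) and within slide 1 (0.0565 and 0.0511 for the diols). With naphthalene, which shares no slide with DMSO, the fixed slide block also ended the call (0.25, adjusted p = 0.101). Leaving out single arrays also ended them: DMSO replicate 2 for all 3 compounds (adjusted p = 0.0792, 0.0966 and 0.0504), DMSO replicate 1 for the diols (0.0686 and 0.0649), each 2,7-naphthalenediol array (0.0514 to 0.102), 1,5-naphthalenediol replicates 1 and 2 (0.0614 and 0.0966) and naphthalene replicate 1 (0.0506). They held in 9 of 18, 10 of 18 and 10 of 17 other settings, with adjusted p up to 0.136, 0.163 and 0.207. Another probe of the gene gave 0.18, 0.15 and 0.06 with no call (adjusted p = 0.0576, 0.0754 and 0.479).

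Aldh1l1 is the cytosolic enzyme that oxidises 10-formyltetrahydrofolate, a carrier of single carbon units, and it was called higher than in DMSO with all 4 compounds in the fit without a slide term. Its levels were 1.77, 1.75 and 1.77 with 2,7-naphthalenediol, 1.94, 1.90 and 1.83 with 1,5-naphthalenediol, 1.84, 1.82 and 1.86 with 1-naphthol and 1.76, 1.66 and 1.72 with naphthalene, against 1.57, 1.60 and 1.57 with DMSO. No compound array overlapped with DMSO. The transcript rose by 24.2% with 1,5-naphthalenediol (log2 difference 0.31 ± 0.037 SE, adjusted p = 0.000147), by 19.8% with 1-naphthol (0.26, adjusted p = 0.00166), by 13.7% with 2,7-naphthalenediol (0.19, adjusted p = 0.0116) and by 9.64% with naphthalene (0.13, adjusted p = 0.0233). The calls for 1,5-naphthalenediol and 1-naphthol held in all 18 and 17 other settings, that within slide 1 included for 1,5-naphthalenediol (0.34, adjusted p = 0.00339). The naphthalene call was lost in 9 of 17 settings, among them the slide as a fixed block (0.22, adjusted p = 0.0851), scaling on the array median (0.04, adjusted p = 0.449) and the fit without DMSO replicate 1 (adjusted p = 0.0603), DMSO replicate 3 (0.0744) or naphthalene replicate 1 (0.0796).

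Aldh4a1 oxidises the glutamate semialdehyde formed from proline in mitochondria, and it was higher with 1,5-naphthalenediol. Its levels were 1.86, 2.01 and 1.89 with 1,5-naphthalenediol, against 1.46, 1.45 and 1.55 with DMSO, and every other array lay between 1.39 and 1.69. The 1,5-naphthalenediol arrays thus overlapped with no other group. Aldh4a1 was 34.9% higher with 1,5-naphthalenediol than with DMSO (log2 difference 0.43 ± 0.057 SE, 95% interval 0.31 to 0.56, adjusted p = 0.000324), and this call held in all 18 other settings, within slide 1 as well (0.45, adjusted p = 0.012). With 2,7-naphthalenediol the difference was 0.01 (adjusted p = 0.926), with 1-naphthol 0.15 (0.0768) and with naphthalene 0.12 (0.151). Another probe of the gene gave 0.47 ± 0.157 for 1,5-naphthalenediol against DMSO (adjusted p = 0.0515).

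Aldh6a1 acts in mitochondria on the semialdehydes formed from valine and thymine, and it was the relative called lower than DMSO. Its levels were 0.06, 0.12 and 0.09 with 1,5-naphthalenediol, against 0.33, 0.21 and 0.20 with DMSO, without overlap. The transcript was lower by 0.16 on the log2 scale (a difference of -10.2%, adjusted p = 0.0246). The call was lost within slide 1 (adjusted p = 0.0937) and without DMSO replicate 1 (0.0929) or 1,5-naphthalenediol replicate 1 (0.0805), and held in 12 of 18 other settings. The remaining groups lay between 0.17 and 0.33. Aldh7a1, which acts on the aminoadipate semialdehyde of lysine breakdown, lay between 2.29 and 2.49 on all arrays and was called in no comparison (F test adjusted p = 0.306). Its largest difference from DMSO was -0.11 with naphthalene (adjusted p = 0.102), and only with scaling on the array median did it pass (-0.20, adjusted p = 0.0196).

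**Figure D3:**
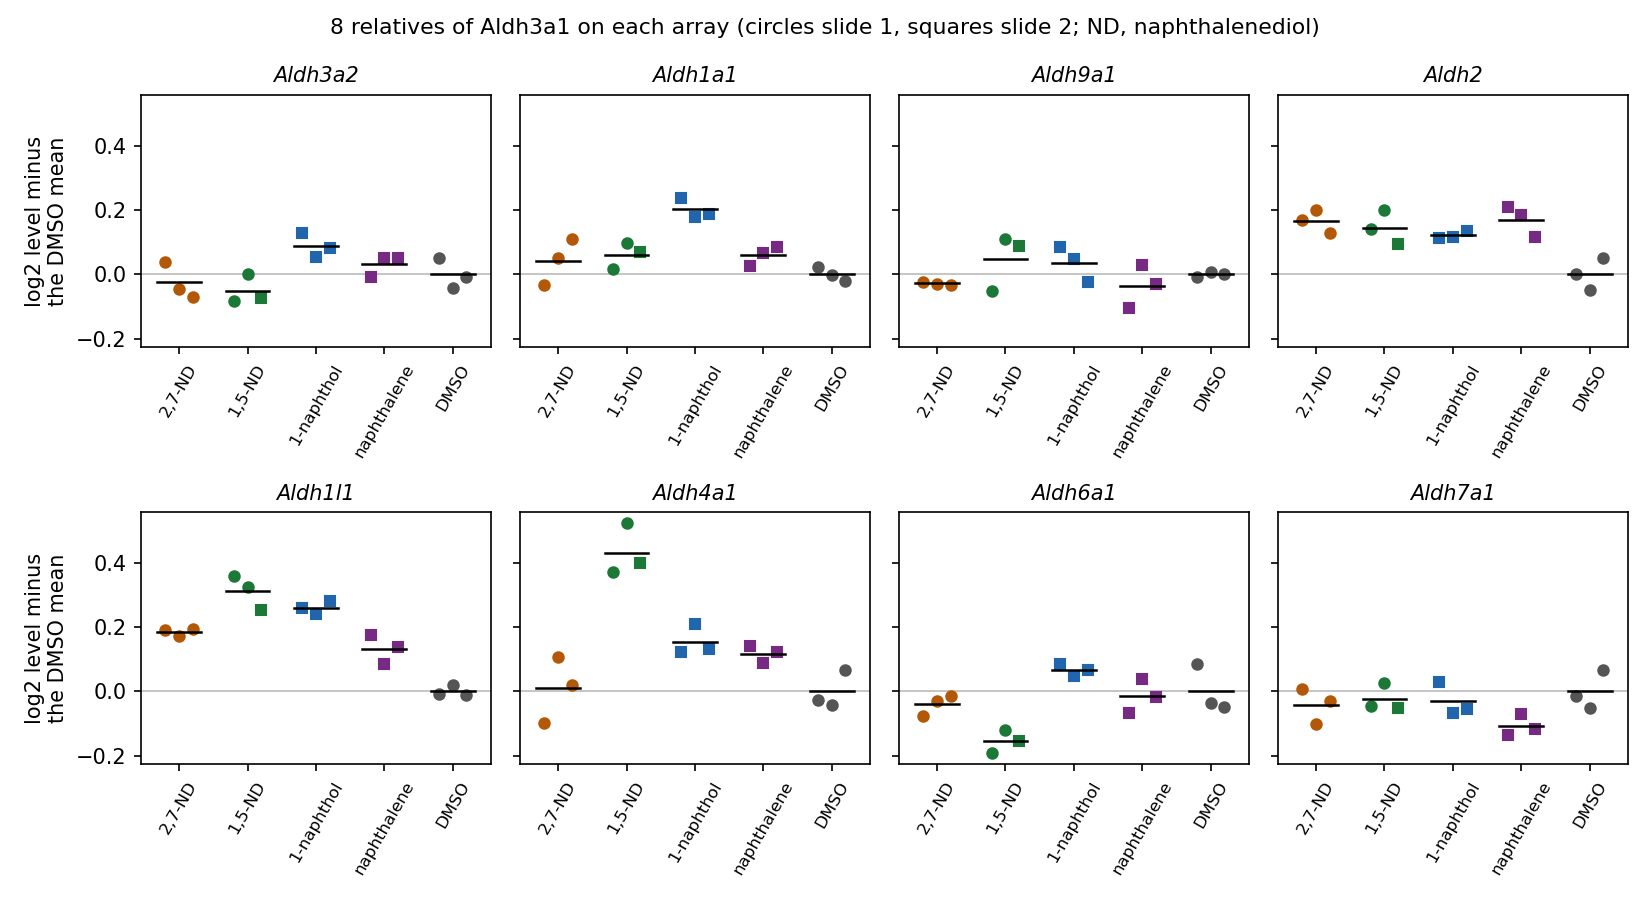
Levels of the 8 relatives on each array minus the mean of the 3 DMSO arrays (log2 scale, the same axis range in every panel), grouped by treatment. Points are arrays, with circles for slide 1 and squares for slide 2. The 1,5-naphthalenediol arrays of Aldh4a1 stand above all others, and the compound arrays of Aldh1l1 and Aldh2 lie above their DMSO arrays.

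Between compounds, relatives were called in some pairs, and each count stands beside the share of all genes. 2,7-Naphthalenediol against 1,5-naphthalenediol called 3 of the 9 genes, where 14.3% of all genes were called, with Aldh4a1 lower by 0.42 (adjusted p = 0.00066) and Aldh1l1 lower by 0.13 (adjusted p = 0.0393) beside Aldh3a1. The Aldh4a1 call held in all 18 other settings, and within slide 1 it was -0.44 (adjusted p = 0.0223). The Aldh1l1 call held in 6 of 18 and was lost without any 1 of the 2,7-naphthalenediol arrays (adjusted p = 0.0834 to 0.115) and without 1,5-naphthalenediol replicate 1 or 2 (0.112 and 0.101). 2,7-Naphthalenediol against 1-naphthol called 2 of 9 (14.6% of all genes), with Aldh1a1 lower by 0.16 (adjusted p = 0.0259), a call held in 7 of 17 other settings. These groups share no slide, and the call was lost with the slide as a fixed block (adjusted p = 0.619) or a random block (0.122). It was also lost without any 1 of the 1-naphthol arrays (0.0587 to 0.0908) or 2,7-naphthalenediol replicate 1 or 2 (0.0853 and 0.0619). 1,5-Naphthalenediol against 1-naphthol called 3 of 9 (9.15% of all genes), with Aldh4a1 higher by 0.28 (adjusted p = 0.0132) and Aldh6a1 lower by 0.22 (adjusted p = 0.0105). Within slide 2 neither relative was called in that pair (adjusted p = 0.215 for Aldh4a1), and the Aldh4a1 call was also lost without 1,5-naphthalenediol replicate 2 (0.0534) or 1-naphthol replicate 1 (0.0533) or 3 (0.0564).

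Against naphthalene, 1,5-naphthalenediol called 4 of the 9 genes, where 24.3% of all genes were called. Aldh4a1 was higher by 0.31 (adjusted p = 0.0026), Aldh1l1 higher by 0.18 (adjusted p = 0.00518) and Aldh6a1 lower by 0.14 (adjusted p = 0.0356). The Aldh6a1 call was lost without any 1 of the 1,5-naphthalenediol arrays (0.0541 to 0.114) and without naphthalene replicate 2 or 3 (0.119 and 0.0649). None of these 3 calls held with the slide as a fixed block (adjusted p = 0.0604 for Aldh4a1, 0.139 for Aldh1l1 and 0.208 for Aldh6a1) or within slide 2 (0.0816, 0.327 and 0.277). 2,7-Naphthalenediol against naphthalene called 1 of 9 (15.4% of all genes) and 1-naphthol against naphthalene 1 of 9 (2.35% of all genes), Aldh3a1 in both. The remaining relatives' log2 differences lay between -0.107 and 0.066 for 2,7-naphthalenediol and between -0.0478 and 0.143 for 1-naphthol. Aldh3a1 differed from naphthalene by more than each of the 8 relatives did with each hydroxylated compound, in a test on the measured levels. As with DMSO, Aldh3a1 passed the filter only through the groups where it is high, so this too is a description. Because Aldh3a1 was dim in naphthalene, the estimated gaps on the processed signal are given as bounds. They were at least 1.94 with 2,7-naphthalenediol, 3.19 with 1,5-naphthalenediol and 4.04 with 1-naphthol for the relative nearest to it.

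Further aldehyde dehydrogenase genes, outside the 9 above, were listed as well. Of 10 listed, 7 were tested, and limma called 0 of them higher than DMSO with each compound, also at an unadjusted p under 0.05. Of all genes, 5.84% were called higher with 2,7-naphthalenediol, 9.25% with 1,5-naphthalenediol, 10.7% with 1-naphthol and 12.1% with naphthalene. For so few genes, 0 of 7 lies near those shares. The calls that were made went lower, where 5.50% of all genes were called lower with 2,7-naphthalenediol, 12.7% with 1,5-naphthalenediol, 9.51% with 1-naphthol and 12.8% with naphthalene. With 2,7-naphthalenediol 0 of 7 were called lower, also at an unadjusted p under 0.05. With 1,5-naphthalenediol 2 of 7 fell, Aldh1l2, a mitochondrial relative of Aldh1l1, by 0.40 on the log2 scale (adjusted p = 0.00531), and Aldh18a1, which makes the semialdehyde for proline synthesis, by 0.35 (adjusted p = 0.00212). Both differences were also called within slide 1 (adjusted p = 0.0263 and 0.0231). With 1-naphthol Aldh18a1 differed by -0.34 (adjusted p = 0.00451), and with naphthalene 3 of 7 were called lower, Aldh18a1 by 0.39, Aldh5a1 by 0.26 and Aldh3b1 by 0.23 (adjusted p = 0.0029, 0.035 and 0.027). A block for the slide left 0 of 7 called for 1-naphthol or naphthalene, where Aldh18a1 gave adjusted p = 0.351 and 0.229.

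Part of the AhR battery list was also called higher with the hydroxylated compounds, and 9 of its 11 genes were tested. They were Cyp1a1, Cyp1a2, Ahrr, Nqo1, Ugt1a6, Cyp2s1, Ahr, Arnt and Nfe2l2, and Tiparp and Cyp1b1 were not tested. Ahr and Arnt encode the receptor and its partner and Nfe2l2 encodes Nrf2, so the counts are not of AhR targets alone. Against DMSO 3 were called higher with 2,7-naphthalenediol (5.84% of all genes were called higher), 4 with 1,5-naphthalenediol (9.25%), 6 with 1-naphthol (10.7%) and 0 with naphthalene (12.1%), while 2 were called lower with 1,5-naphthalenediol (12.7% of all genes). With naphthalene 0 were called higher at an unadjusted p under 0.05 as well, and 1 was lower at that level. Scaling on the array median gave 2, 4, 5 and 0 called higher, and 0, 2, 0 and 2 called lower. A block for the slide gave higher counts that were 3, 4, 3 and 0. The list was chosen with earlier results of these data known, so the shares of all genes are no test of it. Cyp1a1, which hydroxylates planar aromatic molecules, was higher by 0.60 with 2,7-naphthalenediol (adjusted p = 0.012), 2.22 with 1,5-naphthalenediol (3.97e-07) and 2.39 with 1-naphthol (5.11e-07), and the difference with naphthalene was 0.21 (0.216). Nqo1, a quinone reductase under both the AhR and Nrf2, was higher by 0.40 (adjusted p = 0.00331), 1.63 (6.29e-09) and 1.24 (2.69e-07) with the same 3 compounds, and the difference with naphthalene was 0.06 (0.452).

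The AhR repressor gene Ahrr was well above background only with 1,5-naphthalenediol and 1-naphthol. There the estimate on the processed signal was at least 3.35-fold and at least 2.91-fold higher than in DMSO (limma, adjusted p = 0.00374 and 0.0101). Ahrr passed the filter on dim probes only through these groups, where it is high. Its p-values and its place in the counts above are therefore descriptions and no independent support. With a slide block the 1-naphthol call was lost (adjusted p = 0.284). Cyp2s1 and Ugt1a6, also counted among the battery, were lower with 1,5-naphthalenediol by 0.21 and 0.13. The order of the diols and 1-naphthol was not the same in every gene: Nqo1 was higher with 1,5-naphthalenediol than with 1-naphthol (0.38, adjusted p = 0.00255), where Aldh3a1 was lower.

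**Figure D4:**
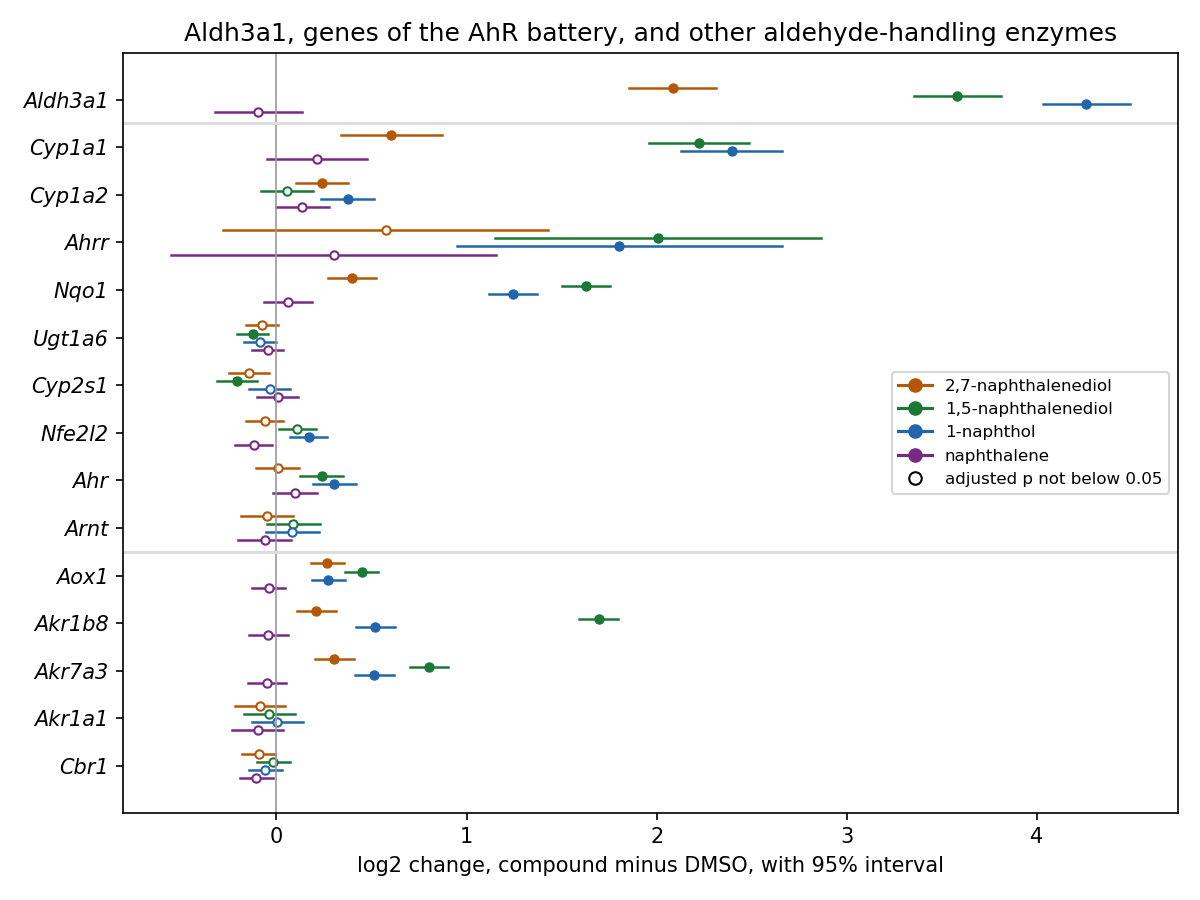
Log2 differences from DMSO of Aldh3a1, the 9 tested genes of the AhR battery list (Ahr, Arnt and Nfe2l2 included) and 5 aldehyde oxidases and reductases with each compound. Points are limma estimates and lines 95% intervals. Aldh3a1 and Cyp1a1 are highest with 1-naphthol at 4.26 and 2.39, while Akr1b8 is highest with 1,5-naphthalenediol at 1.70.

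Among other enzymes that handle aldehydes, 3 of the 5 tested oxidases and reductases, Akr1b8, Akr7a3 and Aox1, were called higher than DMSO with each hydroxylated compound. Of all genes, 5.84% were called higher with 2,7-naphthalenediol, 9.25% with 1,5-naphthalenediol and 10.7% with 1-naphthol. This list was chosen with earlier results of these data known, so these shares are a reference and no test of the list. Akr1b8, an aldo-keto reductase, was higher by 0.21 with 2,7-naphthalenediol (adjusted p = 0.0192, lost within slide 1 at 0.0653), 1.70 with 1,5-naphthalenediol (5.4e-10) and 0.52 with 1-naphthol (0.000128). Akr7a3, an aflatoxin aldehyde reductase, was higher by 0.31, 0.80 and 0.52 (adjusted p = 0.00376, 6.19e-07 and 0.000123), and the aldehyde oxidase Aox1 by 0.27, 0.45 and 0.27 (0.00355, 2.19e-05 and 0.0019). With naphthalene the differences of these 3 were -0.04, -0.05 and -0.04, and Akr1a1 and Cbr1 were called with no compound. Cbr1, a carbonyl reductase, differed by -0.09 with 2,7-naphthalenediol (unadjusted p = 0.0363, adjusted p = 0.14) and by -0.11 with naphthalene (unadjusted p = 0.0197, adjusted p = 0.0675). In the fit without a slide term, Akr1b8 was higher with 1,5-naphthalenediol than with 1-naphthol by 1.18 (adjusted p = 4.18e-08), the opposite order to Aldh3a1. Only 1 array of 1,5-naphthalenediol shares a slide with 1-naphthol, and the part of the slide in this order is not given here.

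The partners of the relatives in their pathways, also listed with earlier results of these data known, were counted together. Of 43 tested partners, oxidases and reductases included, 3 were called higher and 0 lower than DMSO with 2,7-naphthalenediol, 6 and 6 with 1,5-naphthalenediol, 6 and 2 with 1-naphthol, and 2 and 6 with naphthalene. In either direction these are 7%, 27.9%, 18.6% and 18.6% of the partners, beside 11.3%, 22.0%, 20.2% and 24.9% of all genes tested. Blocking on the slide, these counts were 3 and 0, 6 and 2, 3 and 0, and 0 and 0. Without the block, Akr1b8, Akr7a3 and Aox1, given above, made up all 3 higher calls with 2,7-naphthalenediol. They were also 3 of the 6 higher calls with 1,5-naphthalenediol and 3 of the 6 with 1-naphthol. Beside Aldh4a1, the proline enzymes Prodh and Oat were lower with 1,5-naphthalenediol by 0.31 and 0.20, and Glud1, glutamate dehydrogenase, was higher by 0.16. Beside Aldh1l1, the folate enzyme Shmt2 was higher by 0.16 and Mthfd2 lower by 0.29 with 1,5-naphthalenediol. These values come from the fit without a slide term. It called 1 higher and 2 lower of 5 proline enzymes, and 1 and 1 of 6 folate enzymes. Of all genes, 9.25% were called higher and 12.7% lower. With the slide as a block 2 partners were called lower, so not all of Prodh, Oat and Mthfd2 kept their call. Beside Aldh7a1, which was not called, the lysine enzyme Aass was higher by 0.94 with 1,5-naphthalenediol (adjusted p = 4.64e-05) and by 0.66 with 1-naphthol (0.00163, and 0.0944 with the slide as a block).

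Over the 15 arrays, the genes whose levels followed Aldh3a1 most closely by Pearson's r were Tsku at 0.98, Cyp1a1 at 0.948, Cyp2a1 at 0.938, Hgd at 0.931 and Herpud1 at 0.927. Over the 9 arrays of the hydroxylated compounds alone, r was 0.975 for Tsku, 0.95 for Cyp1a1, 0.69 for Cyp2a1, 0.773 for Hgd and 0.65 for Herpud1. The arrays share groups and slides, so these are descriptions without a test. Tsku, which encodes the secreted protein tsukushi, differed from DMSO by 0.25 with 2,7-naphthalenediol, 0.45 with 1,5-naphthalenediol and 0.61 with 1-naphthol, on the log2 scale on which Aldh3a1 differed by 2.09, 3.58 and 4.26. Among the relatives r with Aldh3a1 was 0.851 for Aldh1l1, 0.646 for Aldh1a1 and 0.536 for Aldh4a1, and it lay between -0.0987 and 0.464 for the other 5.

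The genes beside Aldh3a1 on chromosome 10 were examined with it. Of the 5 protein-coding genes on either side, 5 of 10 were tested: Natd1, Map2k3, Usp22, Aldh3a2 and Mfap4. Against DMSO only Natd1 (-0.32, adjusted p = 0.00313) and Map2k3 (0.18, adjusted p = 0.0058) were called, both with 1,5-naphthalenediol, which is 2 of 5 where 22.0% of all genes were called. Usp22, on the other side of Aldh3a1 from Aldh3a2, had the largest difference, 0.34 with 2,7-naphthalenediol, which did not pass (adjusted p = 0.055). Aldh3a2, the next gene along, differed from DMSO by -0.02, -0.05, 0.09 and 0.03 with the 4 compounds, none of which passed the test.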

How the data were processed

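The deposited files hold 1 intensity per spot for each of 15 arrays. Per the file headers, the authors made it with Feature Extraction 10.7.1.1 (protocol GE1_107_Sep09, design build rn4), which subtracted background and detrended within the array, with no scaling between arrays. Per the labels' protocols, the RNA was labelled with Cy3. From these deposited intensities, log2 values minus the array's 75th percentile (1690 to 2024 units) were computed, leaving out control spots and the 250 to 354 spots per array marked as non-uniform or outlying, and averaging the spots of each probe. By accession, 21229 of the 45598 gene probes had 1 symbol in the GRCr8 gene table and 24369 kept their accession. A probe was kept if some group had it well above background (on a share of at least 0.5 of its spots) on each of its 3 arrays. The brightest of a gene's kept probes stood for it, and 7 probes with a missing value were left out, which gave 19783 genes. The fit used 1 mean per group over 15 arrays (R 4.3.3, limma 3.58.1, 10 residual degrees of freedom) for 10 comparisons, with intervals at 95%, and was tested on simulated data. The gap between Aldh3a1 and a relative was tested on their log2 difference per array in the same fit. Genes named beside the members come from lists of aldehyde dehydrogenases, the AhR battery and pathway partners, and the 5 most alike and the 5 neighbours on each side. The members and lists were chosen with earlier results of these data known. Alternatives were array median and quantile scaling, normexp (offset 50, run on the median signal, a choice made after seeing the data, since no mean signal was found in the files used here), other dim-probe filters, the mean of probes, slide and replicate blocks, an intensity trend, single slides, 2 groups alone and each array left out. The number of arrays limits the precision.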

Additional observations from a re-analysis of the deposited data

How the results depend on the processing

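Across alternatives, 165 of 166 values of Aldh3a1 kept their call and direction, and 1300 of those of the relatives did, with 92 losing a call, 16 gaining one and none reversing. The exception for Aldh3a1 was 1,5-naphthalenediol against 1-naphthol within slide 2 (-0.86, adjusted p = 0.0853), the highest of its settings, whose adjusted p began at 8.31e-05. A filter that asked for signal on all 15 arrays gave Aldh3a1 no value. The difference between Aldh3a1 and a relative lost its call in 13 of 928 settings. The number of the 9 genes called moved as follows. Naphthalene against DMSO (2) gave 1 with array median, quantile scaling or the mean of probes, and 0 without the dim-probe filter, with the slide as a fixed block or with 2 groups alone. 1-Naphthol against DMSO (3) gave 6 with normexp and 5 with the trend. 2,7-Naphthalenediol against DMSO (3) gave 1 without the filter. 1,5-Naphthalenediol against DMSO (5) gave 3 without the filter, within slide 1 and with 2 groups alone. 2,7-Naphthalenediol against 1-naphthol (2) gave 1 with quantile scaling, no filter, the 15-array filter, either slide block and 2 groups alone. 1,5-Naphthalenediol against 1-naphthol (3) gave 1 without the filter, with the fixed slide block and with 2 groups alone, 5 with the trend and 0 within slide 2. 1,5-Naphthalenediol against naphthalene (4) gave 1 with the fixed slide block and within slide 2, and 2 with 2 groups alone. 1-Naphthol against naphthalene (1) gave 2 with array median or trend, and 0 with the 15-array filter, as did 2,7-naphthalenediol against naphthalene (1). Leaving out single arrays gave 2 to 3, 3 to 5, 3 to 3 and 0 to 2 genes for the 4 compounds against DMSO, 2 to 3 for the diols against each other, 1 to 2 and 2 to 3 for 2,7- and 1,5-naphthalenediol against 1-naphthol, and 1, 3 to 4 and 1 for the hydroxylated compounds against naphthalene. No pairing by replicate number was seen: 2 of 30 same-numbered pairs had a correlation above 0.1, and 5 of the 15 arrays had their highest correlation within their own number. This check cannot exclude pairing, since shared experiments may be numbered otherwise. The replicate block ended the calls of Aldh1l1 between the diols (adjusted p = 0.0544) and of Aldh6a1 between 1,5-naphthalenediol and naphthalene (0.0561). Over all genes, calls against DMSO ranged over settings from 477 to 3185 (2244) with 2,7-naphthalenediol, 2357 to 4874 (4345) with 1,5-naphthalenediol, 230 to 4592 (4001) with 1-naphthol and 135 to 6895 (4918) with naphthalene, with the lowest counts from the missing dim-probe filter, 2 groups alone and, for the last 2 compounds, the fixed slide block. Scaling on the array median put 25.5%, 25.7%, 34.4% and 20.2% of these calls higher, against 51.5%, 42.1%, 53% and 48.7%. Leaving out 1 array gave, for the 4 compounds in the same order, 679 to 1574, 2958 to 4350, 1845 to 3059 and 2491 to 4856 genes called.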
